A study of Mus musculus with 11 samples.

Results

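Chondroitin sulfate synthesis was described in mouse epididymal white adipose tissue (eWAT) through 10 genes, which are Chpf, Chpf2, Chsy1, Csgalnact1, Csgalnact2, Xylt1, Chst11, Chst12, Vcan and Bgn. They were found by gene symbol, and all 10 were among the 15453 genes with a value for every mouse. The list was drawn up with the values of these mice known, and Chpf was chosen by its difference between the genotypes in them. Differences of the 10 genes between genotypes are therefore given as descriptions, and their intervals and the counts of called genes among them are no evidence of a difference.

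The comparison concerns how the transcripts of fat tissue differ when Mest, an imprinted gene read from the father's copy, is lost. RNA came from eWAT of 11 mice, 6 of them wildtype (WT) and 5 with paternal Mest inactivation (pKO), male C57BL/6J of 16 weeks that had eaten a high fat diet from week 8 to week 16. The pKO mice inherited from their father a Mest allele lacking an exon, deleted in the germline and so in every tissue, while the WT mice came from the same kind of cross. All 11 mice were picked from a larger cohort in which the WT mice were fatter, so genotype and adiposity cannot be told apart. Mest, the targeted gene, had 20756 to 27897 normalized tags across WT and only 793 to 2275 across pKO mice, and the genotypes did not overlap. Adipocyte markers were plentiful in every mouse, with 8 of 8 present and a summed level of 691243 to 1103800. Recovered depth was 9659740 to 14825727 tags a mouse. Because the tissue was profiled in bulk, fewer cells of a type and less RNA per cell cannot be told apart.

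Chondroitin sulfate is a long unbranched sugar chain of alternating glucuronic acid and N-acetylgalactosamine, built in the Golgi on serines of a core protein. Xylosyltransferases start a short linker, Csgalnact enzymes add the first N-acetylgalactosamine, and polymerase complexes made of Chsy and Chpf proteins then lengthen the chain before sulfotransferases of the Chst family add sulfate. In adipose tissue the finished proteoglycans sit in the matrix around fat cells and vessels.

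In serial analysis of gene expression (SAGE), each transcript is counted through 1 tag beside the NlaIII site, CATG, nearest to its poly(A) tail, so a level does not grow with transcript length. The expected tags of the genes on which the results turn are given with the NlaIII site in capitals, read 5′ to 3′ along the transcript in GENCODE release 21 on GRCm38.
Chpf: CATGggctcaggacaagccctgagaca
Chpf2: CATGgctctgtttgaacaggaacaggc
Chsy1: CATGtgttttggggacaaaggtgaaat
Chst12: CATGggctttaaaaaaaatatttttta
Vcan: CATGtatagtgtaaaatgtgaatggct
Bgn: CATGtctgacttccagctctcctgggc
The Chpf tag lies in the 3' UTR, in exon 5, at chr1:75474815-75474841 on the minus strand, 263 bases before the transcript's end, and both annotated coding transcripts carry it. Chpf2 has its tag in the coding sequence, at chr5:24592325-24592351 on the plus strand, and the tag of Chsy1 is in the 3' UTR at chr7:66173569-66173595 on the plus strand. For Chst12 the tag is at chr5:140525666-140525692 on the plus strand, for Vcan at chr13:89655400-89655426 on the minus strand and for Bgn at chrX:73495143-73495169 on the plus strand, each in the 3' UTR. Each printed tag is that of the longest coding transcript with a RefSeq identifier. It is carried by 1 of 3 annotated coding transcripts of Chpf2, 1 of 8 of Vcan and 1 of 2 each of Bgn and Chst12. The others of these genes have different tags, and the longest Chpf2 transcript has its tag in the 3' UTR. Chsy1 has 1 coding transcript. Each of the 10 expected tags matched the expected tag of no other gene. The values analysed are per gene, so which tags the authors counted for a gene is not known.

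Chpf, a subunit of the chain-lengthening polymerase, was the gene of the 10 with the largest difference between genotypes. In WT mice its normalized tags ran from 104 to 216 with a median of 145. The pKO mice 1 to 5 had 519, 480, 200, 400 and 393. Of the pKO mice, 4 of 5 lay above every WT mouse, while pKO 3 lay below the highest WT mouse, so the ranges overlapped. The means were 152 ± 40.1 in WT (SD, n = 6) against 398 ± 123 in pKO mice (SD, n = 5), a ratio of 2.63. On the log2(value + 1) scale, pKO minus WT was 1.36 with a standard error of 0.25 and a 95% interval of 0.83 to 1.89.

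Chpf2, the closest relative of Chpf and also a polymerase subunit, did not share that pattern. It had 289 to 451 normalized tags in WT mice, with a median of 343, and 196, 258, 342, 468 and 427 in pKO mice 1 to 5. Thus pKO 1 and pKO 2, with the highest Chpf values, were below every WT mouse in Chpf2, and pKO 4 was above every WT mouse. The log2 difference was -0.10 with a standard error of 0.21 and an interval of -0.56 to 0.36, and it became 0.08 without pKO 1. Chsy1, a polymerase with both sugar transfer activities, had 276 to 399 in WT mice (median 349) and 535, 350, 416, 337 and 355 in pKO mice 1 to 5. Its genotypes overlapped, with 2 pKO mice above every WT mouse, and the log2 difference was 0.21 with a standard error of 0.15.

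Chsy3, the remaining polymerase gene and not among the 10, was scarce at 4 to 14 recovered tags a mouse. Chpf made up 17.8% ± 3.50 (SD, n = 6) of the summed tags of Chpf, Chpf2, Chsy1 and Chsy3 in WT mice, from 13.7% to 23.3%. In pKO mice 1 to 5 its share was 41.2%, 43.5%, 20.8%, 33.1% and 33.25%, so only pKO 3 fell in the WT range. The summed polymerase tags were 848 ± 111 in WT (SD, n = 6) against 1143 ± 114 in pKO mice (SD, n = 5). With Chpf taken out of the sum they were 696 ± 88.2 and 745 ± 72.8. For each Chpf2 tag there were 0.44 ± 0.11 Chpf tags in WT mice and 2.65, 1.86, 0.59, 0.85 and 0.92 in pKO mice 1 to 5.

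**Figure D1:**
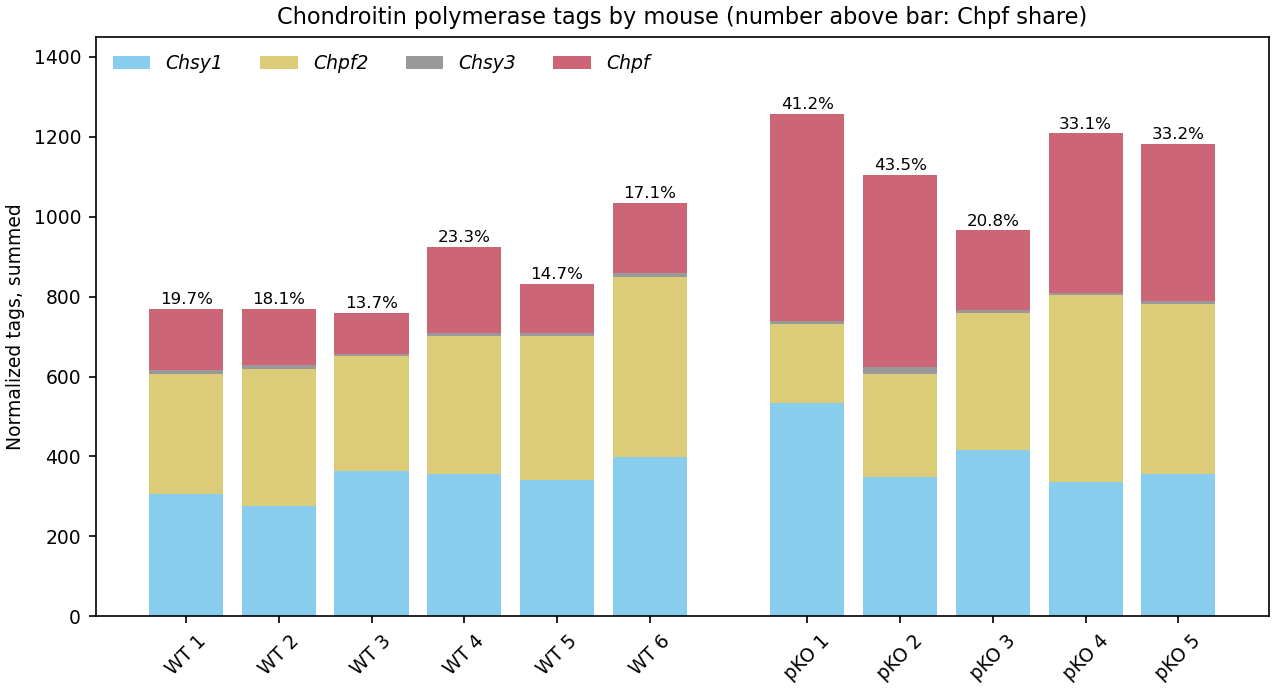
Normalized tags of Chsy1, Chpf2, Chsy3 and Chpf stacked for each of the 11 mice, with the Chpf share of the sum in percent above each bar. The Chpf segment takes 13.7% to 23.3% in the 6 WT mice and 20.8% to 43.5% in the 5 pKO mice.

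Among the enzymes that begin the chain, Csgalnact2 was the more abundant. It had 411 to 524 normalized tags in WT mice (median 464) and 406, 542, 551, 507 and 590 in pKO mice 1 to 5. The ranges overlapped, with 3 pKO mice above every WT mouse and pKO 1 below, and the log2 difference was 0.13 with a standard error of 0.13. Csgalnact1 had 120 to 210 in WT mice (median 164) and 139, 131, 151, 147 and 158 in pKO mice 1 to 5, all of which lay inside the WT range. Its share of the tags of both was 26.0% ± 4.63 in WT (SD, n = 6) against 22.0% ± 2.26 in pKO mice (SD, n = 5).

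Xylt1, a xylosyltransferase that starts the linker, had between 0 and 3 recovered tags in every mouse. At that depth no difference was detectable and no fold is given. Xylt2, which catalyses the same step and is not among the 10, ran from 135 to 270 normalized tags in WT and from 120 to 302 in pKO mice.

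The 2 sulfotransferases of the list, Chst11 and Chst12, both add sulfate at the 4 position of N-acetylgalactosamine. Chst12 was the more abundant and had a narrow range in WT mice, from 1348 to 1517 with a median of 1386. The pKO mice 1 to 5 had 923, 1065, 1600, 1518 and 1814. No pKO mouse fell inside the WT range, since pKO 1 and pKO 2 lay below it and the other 3 above it. For pKO 4 this was close to a tie, at 1518 against 1517 in the highest WT mouse. The means were nevertheless close, at 1414 ± 68.2 (SD, n = 6) and 1384 ± 376 (SD, n = 5), and the log2 difference of -0.08 (standard error 0.17) became 0.06 without pKO 1 and 0.01 without pKO 2. Chst11 had 61.9 to 89.0 in WT mice (median 78.7) and 36.9, 52.7, 74.3, 88.3 and 89.0 in pKO mice 1 to 5. As with Chst12, pKO 1 and pKO 2 were below every WT mouse. The log2 difference of Chst11 was -0.24 with a standard error of 0.23 and moved to -0.04 without pKO 1.

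Of the core proteins, Bgn encodes biglycan, a small leucine-rich proteoglycan that binds collagen, and was the most abundant of the 10 genes. It had 3382 to 4514 normalized tags in WT mice (median 3760) and 3430, 4119, 2254, 4937 and 2603 in pKO mice 1 to 5. Those values put pKO 3 and pKO 5 below every WT mouse and pKO 4 above, with a log2 difference of -0.20 and a standard error of 0.18 that moved to -0.06 without pKO 3. Vcan encodes versican, a large matrix proteoglycan that binds hyaluronan. It had 371 to 543 in WT mice (median 470) and 573, 539, 570, 504 and 577 in pKO mice 1 to 5. Of the pKO mice, 3 of 5 lay above every WT mouse in Vcan, and its log2 difference was 0.25 with a standard error of 0.12 and an interval of -0.01 to 0.52.

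**Figure D2:**
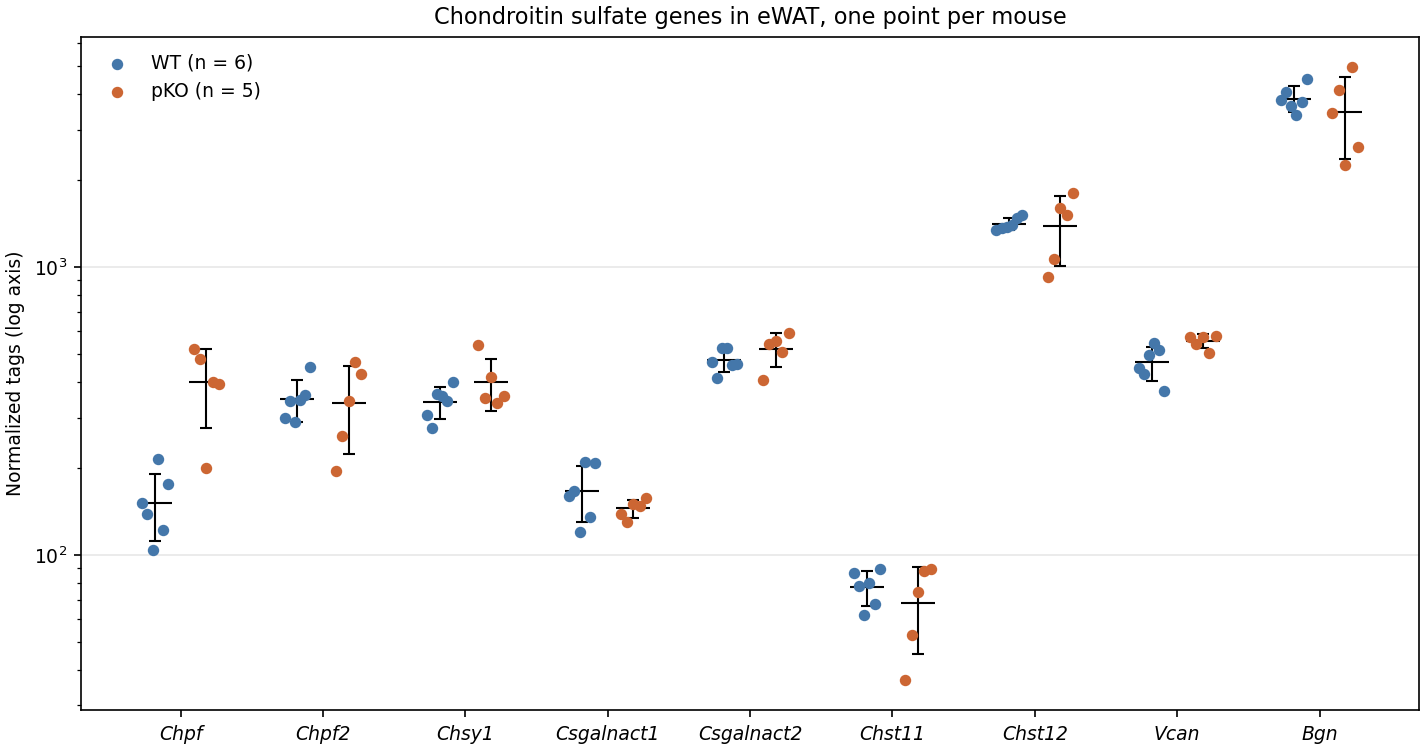
Normalized tags of 9 genes on a log axis, one point per mouse, with 6 WT mice in blue and 5 pKO mice in orange; black marks are means and bars are SD. Xylt1, at 0 to 3 tags in every mouse, is not drawn, and Chpf is the gene in which 4 of 5 pKO points sit above all WT points.

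A gene was called when its mean reached 50 normalized tags in a genotype and its limma p passed a threshold. Of the 10 genes, 9 reached that mean. At an adjusted p of 0.1 limma called 0 of the 9, against 0.0505% of all 9906 genes with such a mean. edgeR also called 0 and DESeq2 called 1, Chpf, which limma called too when pKO 2 or pKO 3 was left out. At an unadjusted p of 0.05 limma called 1 of the 9, Chpf, which was higher in pKO mice, where 4.85% of the 9906 genes were called higher, 5.77% lower and 10.6% in either direction. Vcan was called as well by DESeq2, and by limma when WT 4 was left out. WT and pKO ranges did not overlap for 0 of the 9 genes and for 1.43% of the 9906. Since Chpf was selected on this contrast, nothing is read from these counts. Among the 9 genes, leaving aside Xylt1, differences were negative in 5 and positive in 4, with a median of -0.08, and the median of the 9906 genes was 0.0086.

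**Figure D3:**
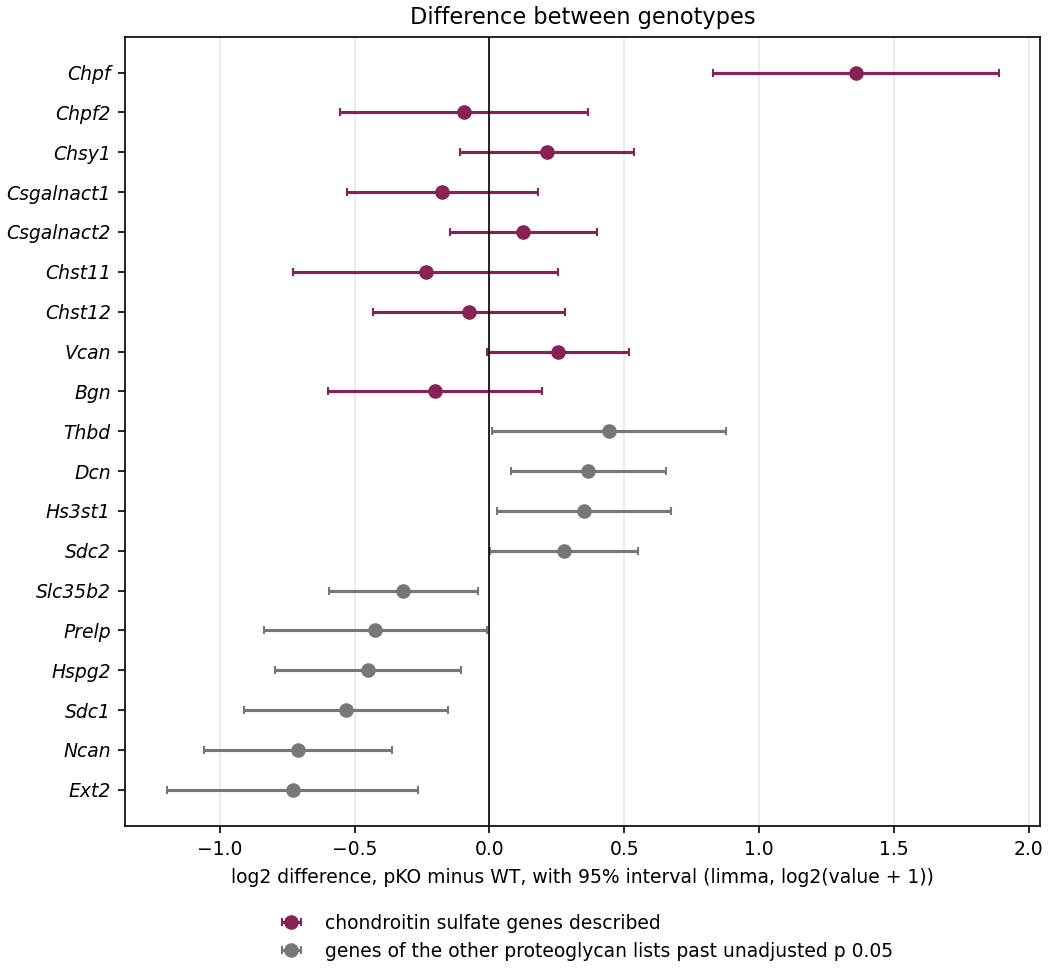
Log2 difference, pKO minus WT, with its 95% interval from limma for 9 of the genes described, in purple, and for the 10 genes of the other proteoglycan lists that passed the unadjusted threshold, in grey. The interval of Chpf runs from 0.83 to 1.89, and those of the other 8 purple genes include 0.

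Over all 11 mice the order of levels was Bgn, Chst12, Vcan, Csgalnact2, Chsy1, Chpf2, Chpf, Csgalnact1, Chst11 and Xylt1, from a mean of 3675 normalized tags down to 1.38. Bgn exceeded Chst12 in 11 of 11 mice and the 2 ranges were apart, as were those of Chst12 and Vcan. Vcan and Csgalnact2 could not be ordered, since Vcan was higher in 5 of 11 mice. Chsy1 and Chpf2 could not be ordered either, with Chsy1 higher in 6 of 11. The place of Chpf depended on genotype. It was above Csgalnact1 in 1 of 6 WT and 5 of 5 pKO mice, and below Chpf2 in 6 of 6 WT and 3 of 5 pKO mice. By the genotype means it ranked 8 of the 10 in WT and 6 in pKO mice, where its mean of 398 was close to the 399 of Chsy1. Csgalnact1 was apart from Chst11 in every mouse.

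The spread among mice of a genotype, given as the coefficient of variation (CV, the SD as a percent of the mean), was larger in pKO than in WT mice for 7 of the 9 genes. That was also the case for 73.5% of the 9906 genes, whose median CV was 15.5% in WT and 23.2% in pKO mice. Chst12 had the largest gap of the 9, with a CV of 4.82% in WT and 27.1% in pKO mice, a ratio of 5.63 that 1.38% of the 9906 genes reached. Csgalnact1 and Vcan went the other way. Their CVs were 22.1% and 13.5% in WT mice and 7.20% and 5.62% in pKO mice. For Chpf the CVs were 26.4% and 30.8%.

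**Figure D4:**
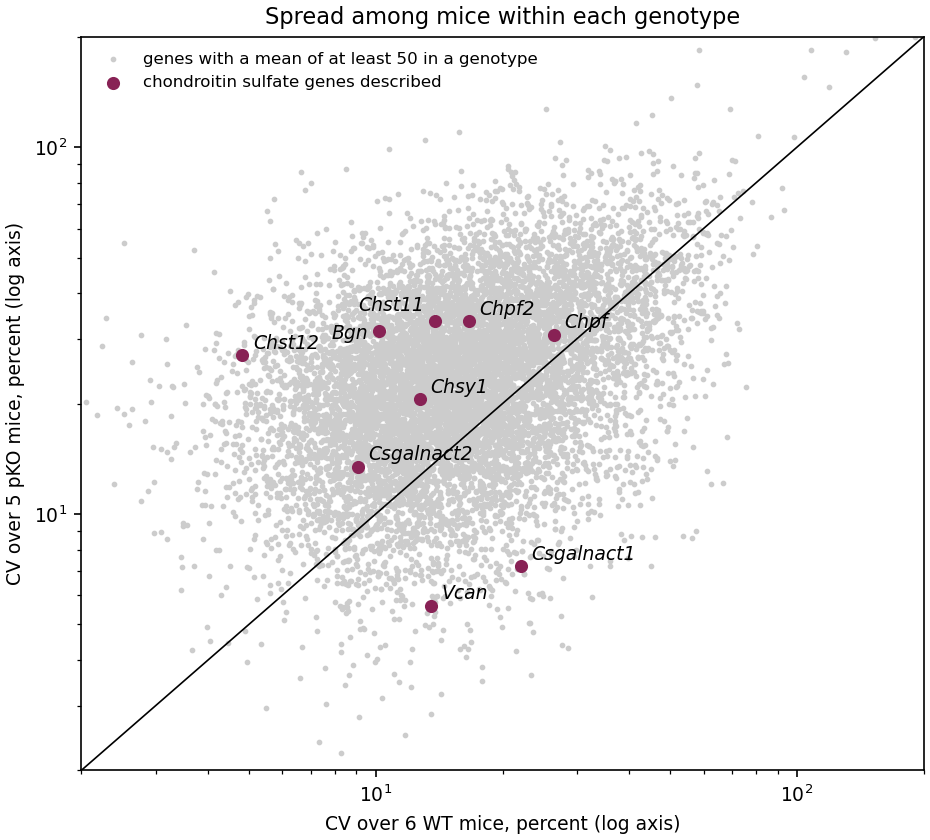
CV over 5 pKO mice against CV over 6 WT mice, both in percent on log axes, with the 9906 genes of sufficient level in grey, 9 of the genes described in purple and the line of equal CV. Chst12 sits far above the line at 4.82% and 27.1%, and Csgalnact1 and Vcan sit below it.

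How the genes moved together among mice of the same genotype was measured on deviations of log2(value + 1) from the genotype mean, a measure in which the genotype difference has no part. All 36 pairs of the 9 genes were computed, a choice made after the values were seen, with exact permutation tests, two-sided, that shuffle mice within each genotype. Ranks for rho were taken within each genotype. By r, 4 of the 36 pairs had an adjusted p of at most 0.1, and by rho none did. Chpf2 and Chst11 had r = 0.90 (n = 11, exact permutation p = 0.0030, adjusted over the 36 pairs 0.054) and rho = 0.64 (exact permutation p = 0.063, adjusted 0.46). Their r was 0.76 without pKO 1 and pKO 4, the mice farthest from the median of Chpf2, 0.49 in WT mice alone and 0.99 in pKO mice alone. For Chpf2 and Chst12 the values were r = 0.88 (n = 11, exact permutation p = 0.0074, adjusted 0.074) and rho = 0.78 (exact permutation p = 0.014, adjusted 0.26). The relation gave r = 0.82 without pKO 1 and pKO 4, and r was 0.86 in WT and 0.91 in pKO mice alone. Vcan and Bgn went in opposite directions, with r = -0.57 (n = 11, exact permutation p = 0.00025, adjusted 0.0092) and rho = -0.85 (exact permutation p = 0.0046, adjusted 0.17). Without WT 4 and WT 6 their r was -0.60, and it was -0.96 in WT and -0.86 in pKO mice alone. Csgalnact1 and Chst11 had r = 0.50 (n = 11, exact permutation p = 0.0082, adjusted 0.074) and rho = 0.75 (exact permutation p = 0.022, adjusted 0.27). Without WT 3 and WT 4 their r was 0.52, and it was 0.84 in WT and 0.74 in pKO mice alone. Of the genes with a mean of at least 50 over all mice, 2.28% had a correlation with Chpf2 as large as that of Chst11, of either sign, and 3.61% one as large as that of Chst12. The shares were 7.61% for Vcan and Bgn and 15.2% for Csgalnact1 and Chst11. Genes measured in the same mouse share its library and depth.

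**Figure D5:**
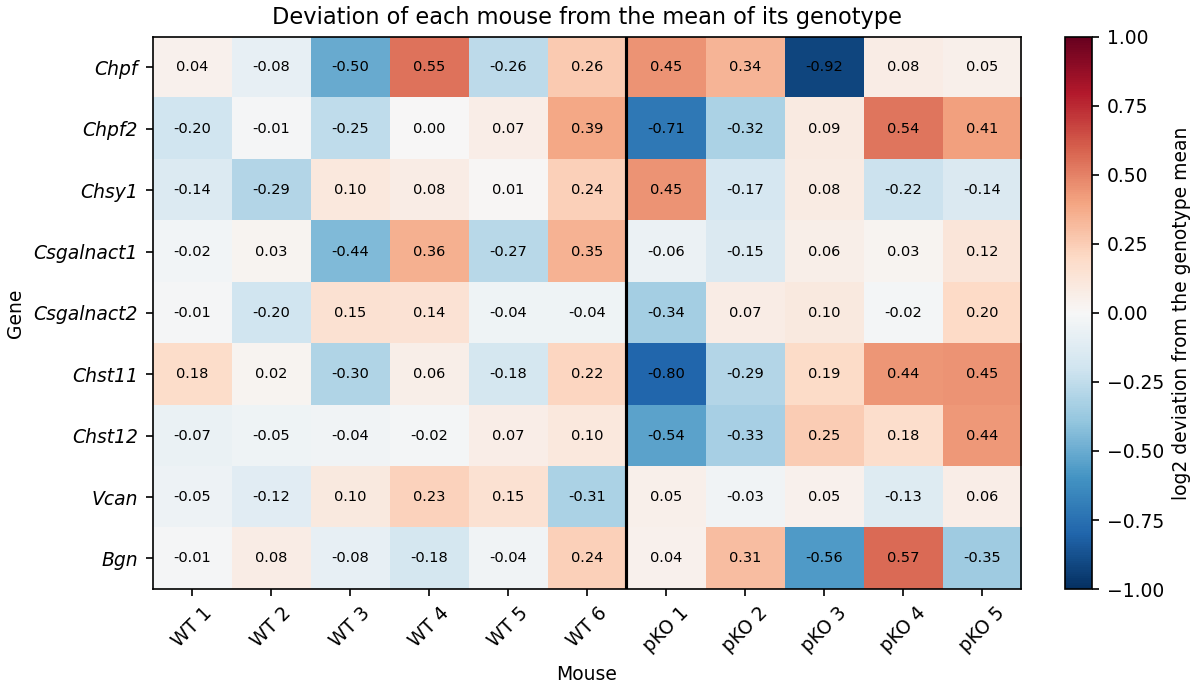
Log2 deviation of each of the 11 mice from the mean of its genotype for 9 genes, in red above and blue below the mean, with WT mice left and pKO mice right of the black line. Chpf2, Chst11 and Chst12 are, among the pKO mice, lowest in pKO 1 and next lowest in pKO 2, while Chpf is highest in pKO 1 and lowest in pKO 3. Of the 9906 genes of sufficient level, 26.8% were lowest in pKO 1 among the pKO mice.

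The 5 genes whose deviations followed those of Chpf most closely over the 11 mice were Cd200, Kidins220, Rnf128, Sfpq and Slc25a13. Their r ran from 0.93 for Cd200 down to 0.91 for Slc25a13. As the highest of 9726 correlations they are large through selection. The other 8 listed genes of sufficient level were not among them. With 5 places for 9726 genes, nothing is read from that absence. Within the list, Bgn came closest at r = 0.50 (n = 11, exact permutation p = 0.21), which ranked 631 among the 9726 genes. Without WT 3 and pKO 3 its r was 0.03, and it was 0.03 in WT and 0.66 in pKO mice alone. Csgalnact1 stood at 0.45, but at 0.96 in WT and -0.53 in pKO mice alone. Chsy1 was at 0.12, Chpf2 at -0.15 and Chst12 at -0.46. Unlike Chpf, the 5 genes did not have higher means in pKO mice. Rnf128, a membrane-bound ubiquitin ligase, had 140 ± 25.5 in WT (SD, n = 6) against 77.1 ± 27.8 in pKO mice (SD, n = 5) with ranges apart, and an adjusted p of 0.31 by limma.

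Chpf lies on chromosome 1 of GRCm38 from 75474569 to 75479307 on the minus strand. Of 14 genes annotated within 100 kb of it, 8 were in the tables. At an unadjusted p of 0.05, limma, edgeR and DESeq2 each called 0 of them, where limma called 10.6% of the 9906 genes. Obsl1, Tmem198, Inha and Gm15179 had means under 50 in both genotypes and could not be called, so nothing is read from this count. Obsl1, a cytoskeletal adaptor gene on the same strand 2 bases away, ran from 8.22 to 21.4 normalized tags in WT and from 6.87 to 15.9 in pKO mice. Tmem198, which starts 224 bases from Chpf on the other strand, had 45.6 ± 10.5 in WT (SD, n = 6) against 48.2 ± 10.1 in pKO mice (SD, n = 5), a log2 difference of 0.08 with an interval of -0.37 to 0.53. Gmppa, a regulator of GDP-mannose synthesis, had 335 ± 217 and 469 ± 184, with a log2 difference of 0.63 and an interval of -0.34 to 1.60. Stk11ip had 195 ± 14.5 and 165 ± 29.5, Speg 101 ± 12.8 and 88.6 ± 29.6, and Slc4a3 58.1 ± 12.2 and 58.8 ± 9.32. Inha and Gm15179 had at most 9 recovered tags in any mouse.

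Another 102 genes of proteoglycan and hyaluronan biology were read from the fit across all genes, in 10 lists also drawn up with earlier results known. Of these, 94 were in the tables and 63 had a mean of at least 50 in a genotype. limma called 0 of the 63 at an adjusted p of 0.1 and edgeR 0, while DESeq2 called 1, Ncan, which limma called too when pKO 2 was left out. At an unadjusted p of 0.05 limma called 10 of the 63, 6 lower and 4 higher in pKO mice, which is 15.9% against the 10.6% of the 9906 genes. The 4 higher calls became 1 without WT 1 or WT 4 or under total-count scaling, and 2 without WT 2, WT 5, pKO 3, pKO 4 or pKO 5. The median log2 difference of the lists ran from -0.20 to 0.11.

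Among the other core proteins that can carry chondroitin or dermatan sulfate, 3 of 8 passed the unadjusted threshold. Ncan, which encodes neurocan, had 375 to 540 normalized tags in the WT group against 232 to 371 in pKO mice, with ranges apart. Its log2 difference was -0.71 (standard error 0.16, adjusted p = 0.26 by limma). Dcn, which encodes decorin and was more abundant than Bgn, had 21572 ± 2491 in WT (SD, n = 6) against 27841 ± 3653 in pKO mice (SD, n = 5), with 4 of 5 pKO mice above every WT mouse and an adjusted p of 0.43 by limma. Thbd, which encodes thrombomodulin, had 2827 ± 569 and 3912 ± 1065, with an adjusted p of 0.52. Srgn, the proteoglycan of secretory granules, had 1120 ± 184 and 1032 ± 203.

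limma called no gene of linker synthesis, chondroitin sulfation or chain breakdown by either rule, and edgeR and DESeq2 each called 1, Fam20b, at an unadjusted p of 0.05. The linker genes with a mean of at least 50 numbered 4, and those with the highest means beside Xylt2 were Fam20b, the xylose kinase, with 326 ± 46.4 normalized tags in WT (SD, n = 6) against 429 ± 112 in pKO mice (SD, n = 5), and B3gat3, which adds the last linker sugar, with 314 ± 67.6 and 314 ± 52.6. Sulfation and epimerization were covered by 5 such genes. Dse, the epimerase that turns chondroitin into dermatan sulfate, had 1969 ± 389 and 2025 ± 301, Chst15, which adds a second sulfate to N-acetylgalactosamine, had 174 ± 32.7 and 164 ± 67.4, and Ust, the uronyl sulfotransferase, had 148 ± 31.6 and 123 ± 43.9. The breakdown list held 8 such genes. Ids, a lysosomal sulfatase and the gene of that list with the highest mean, had 2050 ± 221 in WT and 1680 ± 1110 in pKO mice, with a lowest pKO value of 192.

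The supply of sulfate donor and sugar nucleotides was covered by 10 genes with a mean of at least 50, of which 7 had negative and 3 positive differences. Only Slc35b2, the Golgi transporter of the sulfate donor, passed the unadjusted threshold, with 284 ± 24.2 normalized tags in WT (SD, n = 6) against 229 ± 33.2 in pKO mice (SD, n = 5) and an adjusted p of 0.47 by limma. Cant1, a Golgi nucleotidase, had 592 ± 44.5 and 522 ± 82.8, and Ugdh, which makes the glucuronic acid donor, 445 ± 59.3 and 480 ± 125.

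Heparan sulfate, the sister chain on the same linker, was covered by 22 of the 63 genes. These gave 5 of the 10 limma calls and the other 41 genes gave the other 5, where 10.6% of the 9906 genes were called. The lists were drawn up with earlier results known, so nothing is read from this split. Of 13 synthesis genes with a mean of at least 50, Ext2, a subunit of the heparan polymerase, was lower, with 414 ± 60.1 normalized tags in WT (SD, n = 6) against 260 ± 82.2 in pKO mice (SD, n = 5) (adjusted p = 0.37 by limma). Hs3st1, a heparan sulfotransferase, was higher, with 217 ± 23.3 and 281 ± 64.3 (adjusted p = 0.49). edgeR and DESeq2 called these and also Hs2st1 at an unadjusted p, which had 324 ± 29.0 and 421 ± 112. Extl3, a glycosyltransferase, Ndst1, which starts heparan sulfation, and Sulf1, an extracellular sulfatase, were the most abundant of that list and were not called, at 5386 ± 732 and 5265 ± 1069, 499 ± 94.1 and 614 ± 130, and 479 ± 26.6 and 468 ± 128. Among 9 heparan sulfate core proteins, Sdc1 was lower at 151 ± 19.7 and 106 ± 25.9, Hspg2, which encodes perlecan, lower at 1533 ± 286 and 1122 ± 220, and Sdc2 higher at 350 ± 36.0 and 425 ± 55.7. Sdc3 and Sdc4 were not called, at 1970 ± 1012 and 1960 ± 305, and 1163 ± 148 and 1392 ± 267. The 3 called core proteins had adjusted p-values of 0.38 to 0.52 in limma.

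Of the other small leucine-rich proteoglycans, relatives of Bgn, 1 of 6 was called. Prelp, which anchors basement membranes to collagen, had 6675 ± 1040 normalized tags in WT (SD, n = 6) against 5110 ± 1415 in pKO mice (SD, n = 5) with an adjusted p of 0.52 by limma, and edgeR and DESeq2 did not call it. Lum, a collagen-binding relative, had 2148 ± 334 and 2028 ± 672, and Ogn 1644 ± 355 and 1692 ± 71.5. Hyaluronan synthases and link proteins, whose product Vcan binds, all stayed under a mean of 50. Has1 had 5.83 ± 2.98 and 13.4 ± 5.37, Has2 23.1 ± 5.24 and 32.4 ± 8.60, and Hapln3 12.7 ± 2.58 and 10.1 ± 5.75.

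Markers of other cells in the fat pad were read beside these values. All 7 mesothelial markers had positive differences and 2 passed the unadjusted threshold in limma, which called 10.6% of the 9906 genes of sufficient level. Some listed markers, among them Krt18, Wt1, Cd68, Cnn1 and Tpsb2, had means too low in both genotypes to be called. Cnn1, of the smooth muscle list, had a log2 difference of -1.16 with an interval of -2.2 to -0.13. That list had 2 positive and 3 negative differences. The summed level of the mesothelial markers was 731 to 1107 normalized tags in WT mice and 1819, 1194, 1340, 1387 and 847 in pKO mice 1 to 5. The highest sum was in pKO 1, which also had the highest Chpf. The lowest pKO sum was in pKO 5, while the lowest pKO value of Chpf was in pKO 3. Among the pKO mice, pKO 1 also had the highest mast cell, endothelial and keratinized epithelial sums. It was not the highest for the adipocyte, fibroblast, macrophage, smooth muscle or T and B cell lists. Of the 9906 genes, 27.7% were highest in pKO 1 among the pKO mice. All 8 macrophage markers had negative differences, although 1, at -0.01, had a slightly higher mean in pKO mice. Of the 8, 2 passed, both lower, and the sums were 3351 to 4292 in WT and 2743 to 3946 in pKO mice. Mast cell markers, 5 of 5 present, summed to 450 to 799 in WT and 552 to 1051 in pKO mice with none called by limma, edgeR or DESeq2. The fibroblast and progenitor list, 8 of 8 present, summed to 30521 to 35560 in WT and 28921 to 43205 in pKO mice, with none called by limma and 1, Fbln1, by edgeR and DESeq2 at an unadjusted p. At an unadjusted p limma called 1 gene each in the adipocyte, endothelial and keratinized epithelial lists, higher in pKO mice. It called none in the smooth muscle and T and B cell lists, and edgeR gave the same calls. DESeq2 called 2 more, Lep of the adipocyte list and Cdh5 of the endothelial list. Their log2 differences in limma were -0.49 for Lep, lower in pKO mice, and 0.38 for Cdh5. Differences were positive in 6 of 8 adipocyte and 3 of 5 endothelial markers. At an adjusted p DESeq2 called 1 gene each in the adipocyte, mesothelial and keratinized epithelial lists. Of the epididymal epithelium list 1 of 6 genes was in the tables, Adam7, which was at 0 in some mice. It had 0 to 26.1 normalized tags in WT mice and 43.8, 0, 9.16, 0 and 0 in pKO mice 1 to 5, so pKO 1 was the highest here too. Dsp, Cd3g and Ms4a1 were also at 0 in some mice. The part of any of these lists in the values of the 10 genes was not tested.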

How the data were processed

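The authors counted SOLiD SAGE tags per gene with a modified version of their instrument's SAGE software. The submitters' processing notes name the build mm10 and edgeR 3.2.3; the gene annotation is not given in the sources used here. The deposited values are a signal, tag counts scaled by one size factor per mouse. Every value was a whole multiple (within 0.01) of the value of 1 tag, 0.836 to 1.19, so whole counts were recovered for 100% of values. In every mouse the size factor equalled the median-of-ratios factor computed from these counts. Intervals cover the spread between mice.

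From these, log2(value + 1) was tested between pKO and WT with limma 3.58.1 (mean-variance trend) in R 4.3.3 over all 15453 genes with Benjamini-Hochberg adjustment, after a test on simulated data. Thresholds were an adjusted p of 0.1 or an unadjusted p of 0.05, with a mean of at least 50 in a genotype. edgeR 4.0.16 and DESeq2 1.42.0 on the recovered counts were alternatives. The 10 genes and all lists were chosen with earlier results of these data known. Named were the 10 genes, genes of the other lists that were called or among the 3 highest, the neighbours of Chpf, the 5 genes most like it, and Mest; a few genes this rule picks are not reported here. No batch is given for the mice.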

Additional observations from a re-analysis of the deposited data

Results flagged for a closer look

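In a group of 4 to 10 mice, a value was singled out when its gap to the nearest other mouse was a larger part of the group's range than Dixon's 95% limit. None of the 10 chondroitin sulfate genes and no Chpf share met this. Among 110 groups examined, 7 did, and chance gives about 1 in 20. Xylt2 was at 135 normalized tags in WT 6 against 243 to 270 in the other WT mice, and at 120 in pKO 4 against 250 to 302 in the other pKO mice. Chst15 was at 235 in WT 6 (others 144 to 176). Hs3st1, called higher in pKO mice, was at 396 in pKO 5 (others 250 to 258). Obsl1, the neighbour of Chpf, was at 21.4 in WT 4 (others 8.22 to 10.2). Kidins220 was at 71.2 in pKO 3 (others 107 to 116), and Slc25a13 at 171 in WT 4 (others 123 to 134).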

How the results depend on the processing

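The log2 difference of Chpf stayed between 1.25 (without pKO 1) and 1.59 (without pKO 3) over 21 alternatives. Signs changed in 1 for Chpf2 and 2 for Chst12, each leaving out a pKO mouse. Counts called lower and higher across all genes at an adjusted p were 4 and 1. DESeq2 called 63 and 58, with 1 of the 10 genes (0 by limma) and 1 gene of the other lists (0 by limma), and at an unadjusted p 2 of the 10 genes (1 by limma). Removing genes with a mean under 50 gave 8 lower. A replicate block on the label numbers (without WT 6) gave counts of 1 and 0; same-numbered mice did not deviate together (mean r -0.02 against 0.0039 for other pairs; 1 of 5 pKO mice correlated best with its own number), so the numbers do not pair the mice. Genes of the other lists called higher at an unadjusted p, 4 by limma, numbered 1 under total-count scaling, 2 without the trend and 2 with the replicate block. Leaving out each mouse in turn gave 2 to 65 genes lower and 1 to 26 higher at an adjusted p (most without pKO 2), 415 to 844 lower and 328 to 639 higher at an unadjusted p, 0 to 1 of the 10 genes at an adjusted and 1 to 2 at an unadjusted p, 0 to 1 gene of the other lists at an adjusted p, 4 to 8 lower and 1 to 6 higher at an unadjusted p, and a median of the 10 genes (Xylt1 included, -0.086 with all mice) from -0.149 to 0.0707. The cause was not tested. The counts of the 10 and of the other lists at an adjusted p were alternatives added after seeing the data. At 0 to 3 tags a mouse, depth limits Xylt1.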
